A study of Mus musculus with 6 samples.

Results

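The 8 genes described here encode 4 fibroblast growth factor (FGF) ligands, Fgf8, Fgf17, Fgf18 and Fgf15, and the 4 signalling FGF receptors, Fgfr1, Fgfr2, Fgfr3 and Fgfr4. They were taken by name from the 19342 gene names of a count table. RNA came from primary mesoderm progenitors of embryonic C57BL/6 mice, grown with serum on mitomycin C-treated mouse embryonic fibroblasts, a feeder layer of cells that no longer divide. The series title places the progenitors in the tailbud and concerns whether BMP signalling keeps them in their state. There were 6 libraries, 1 per condition: untreated at 0 h and at 96 h of culture, and 4 cultures given human recombinant proteins after 96 h. Of the latter, a pair was harvested 5 h later, at 101 h, after BMP4 alone or combined with FGF8. The other pair was harvested 11 h later, at 107 h, after BMP4 alone or combined with FGF4. No untreated culture of 101 h or 107 h was among the libraries, so growth factor and added culture time cannot be told apart in a comparison with 96 h. How many embryos gave each library is not given in the sources used here.

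FGF ligands are secreted proteins that bind receptor tyrosine kinases on the cell surface together with heparan sulphate, and thereby activate the RAS and ERK cascade. In the mouse tailbud, Fgf8 and Fgf4 act together to keep presomitic mesoderm undifferentiated, and Fgf8, Fgf17 and Fgf18 form one subfamily of closely related ligands. Fgf15, the mouse counterpart of human FGF19, belongs to the endocrine ligands, which bind heparan sulphate weakly. Fgfr1 is the main receptor of the early mesoderm, and Fgfr2, Fgfr3 and Fgfr4 are known from epithelia and limbs, from cartilage, and from liver and muscle progenitors. Receptor isoforms made by alternative splicing differ in the ligands they bind, and gene counts do not separate them.

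The coding sequences show how alike the subfamily members are, which bears on whether a read can be assigned to 1 of them. The longest annotated coding sequence of Fgf8 was 72.3% identical to that of Fgf17 over their aligned bases and 68.2% identical to that of Fgf18, and the longest runs of identical bases were 20 and 14. Among the 4 receptors, identity lay between 67.0% and 72.5%, with a longest shared run of 26 bases, between Fgfr1 and Fgfr3. A 90-base stretch of Fgf8 and Fgf18 from the most alike part of the subfamily, within 1 coding exon each, is printed from the sense strand, with capitals where a base differs from Fgf8. It lies in build GRCm38 on the minus strand at chr19:45737176-45737265 (Fgf8) and chr11:33117927-33118016 (Fgf18).
Fgf8: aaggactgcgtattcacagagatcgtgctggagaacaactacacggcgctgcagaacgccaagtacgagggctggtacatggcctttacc
Fgf18: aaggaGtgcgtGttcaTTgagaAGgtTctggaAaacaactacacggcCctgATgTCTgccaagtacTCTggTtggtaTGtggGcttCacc
Even here Fgf18 differed from Fgf8 at 22 bases.

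The genes lie, in GRCm38.p6 coordinates, on chromosome 19 from 45736491 to 45742941 (Fgf8), chromosome 14 from 70636203 to 70642268 (Fgf17), chromosome 11 from 33116970 to 33147400 (Fgf18) and chromosome 7 from 144896532 to 144900953 (Fgf15). The receptors lie on chromosome 8 from 25518759 to 25575718 (Fgfr1), chromosome 7 from 130162451 to 130266808 (Fgfr2), chromosome 5 from 33721724 to 33737068 (Fgfr3) and chromosome 13 from 55152818 to 55168759 (Fgfr4).

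Levels are given as CPM, counts scaled to library size, with the 95% interval that counting error alone allows. Column totals lay between 179196459 and 272743104 counts, so 3 counts corresponded to between 0.0110 and 0.0178 CPM. Every reading of an FGF gene in a growth factor library rests on matching that column to the gene names, because these 4 columns hold more values than there are names. A count was read where every other row fitted worse by at least 5 units of log-likelihood. All 8 genes were read in the untreated libraries and in the BMP4 5 h, BMP4 11 h and BMP4 with FGF8 libraries, and 7 of 8 in the BMP4 with FGF4 library. There the row of Fgf8 led the next by 3.1 units. It led by 6.5 when extra values were charged more wherever the annotation has no gene for them, and a direct alignment of both 11 h columns gave the same row. The values of Fgf8 from that row are printed as such. Fgf17 and Fgf18 passed narrowly in the same library, at 5.1 units each, and at 3.9 units with the annotation, with the same counts. A gene was counted as higher or lower where the ratio after adding 0.5 CPM was at least 2-fold and the interval of the plain ratio excluded 1. No condition was replicated, so no difference has a replicate check or a p-value.

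Both libraries labelled 5 h lay close to 0 h rather than to 96 h, and whether these labels are right cannot be checked from the files. Every ratio of a 5 h library to 96 h carries that limit. Between BMP4 5 h and 0 h, 0.199% of 13545 genes analysed were higher and 0.0369% lower, and none of the 8 FGF genes passed 2-fold. Shares of all genes rest on these 13545, which were read in all 6 libraries. Fgf8 is therefore not among them, but is counted in each comparison where it was read. The BMP4 with FGF4 library lay close to 96 h, with 0.790% of genes higher and 0.0591% lower. Of the 7 FGF genes read there, Fgf17 alone was higher. The summed level of 11 tailbud and presomitic markers, of 14 listed, was 590 CPM at 0 h, 95.3 at 96 h, 572 with BMP4 at 5 h and 546 with FGF8 added. It was 335 CPM with BMP4 at 11 h and 145 with FGF4 added. Fibroblast markers (9 of 11) summed to 180 CPM at 0 h, 831 at 96 h, 257 and 230 in the 5 h libraries, 508 with BMP4 at 11 h and 1230 with FGF4 added. The feeder cells are mouse fibroblasts too, and their part in these sums and in the FGF values was not tested. Endothelial markers (11 of 11) ranged from 10.9 CPM at 0 h to 169 with FGF4, and lateral plate markers (8 of 9) from 51.4 to 163 CPM. Red blood cell markers (4 of 12) summed to 3.29 CPM at 0 h, 126 at 96 h, 3.17 and 5.31 in the 5 h libraries, 88.0 with BMP4 at 11 h and 84.3 with FGF4 added. Cardiac muscle markers (5 of 7) ranged from 3.75 CPM with FGF8 added to 30.8 CPM at 96 h. The red blood cell, fibroblast and cardiac sums were lower in the 0 h and 5 h libraries than in the other 3. No marker read was at 0 in any library. In cultures that hold several cell types, fewer cells of a type and less RNA per cell cannot be told apart, and the part of cell makeup in the FGF values was not tested.

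Fgf17 showed the widest range of the 8 genes. Its level was 38.0 CPM at 0 h, 0.477 CPM at 96 h, 33.2 CPM with BMP4 at 5 h and 32.3 CPM with BMP4 and FGF8. It was 13.8 CPM with BMP4 at 11 h and 1.80 CPM with BMP4 and FGF4. The 3 libraries at 0 h and 5 h were thus high, BMP4 at 11 h was intermediate, and the 96 h and FGF4 libraries were low. Counting intervals overlapped between neighbours in this order for both 5 h libraries alone.

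Fgf8, the ligand most studied in the tailbud, ran in the same order apart from the 5 h pair. Its level was 17.8 CPM at 0 h, 1.32 CPM at 96 h, 13.7 CPM with BMP4 at 5 h, 15.3 CPM with BMP4 and FGF8, and 6.49 CPM with BMP4 at 11 h. The row that was not securely placed held 434 counts with BMP4 and FGF4, which is 2.03 CPM (1.85 to 2.23). No neighbouring intervals of Fgf8 overlapped. The FGF8 given to the culture was a protein and adds no Fgf8 RNA of its own.

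Fgf18, which acts in the somite, bone and lung, had a smaller range. It stood at 14.5 CPM at 0 h, 3.64 at 96 h, 13.3 with BMP4 at 5 h, 13.2 with FGF8 added, 6.67 with BMP4 at 11 h and 3.89 with FGF4 added. The 5 h pair overlapped in their intervals, and so did the 96 h and FGF4 libraries.

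Fgf15 held nearly level, between 8.65 and 12.1 CPM. Its values were 11.3 CPM at 0 h, 8.89 at 96 h, 11.1 with BMP4 at 5 h, 12.1 with FGF8 added, 11.2 with BMP4 at 11 h and 8.65 with FGF4 added. The intervals of the 96 h and FGF4 libraries overlapped below the other 4.

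**Figure D1:**
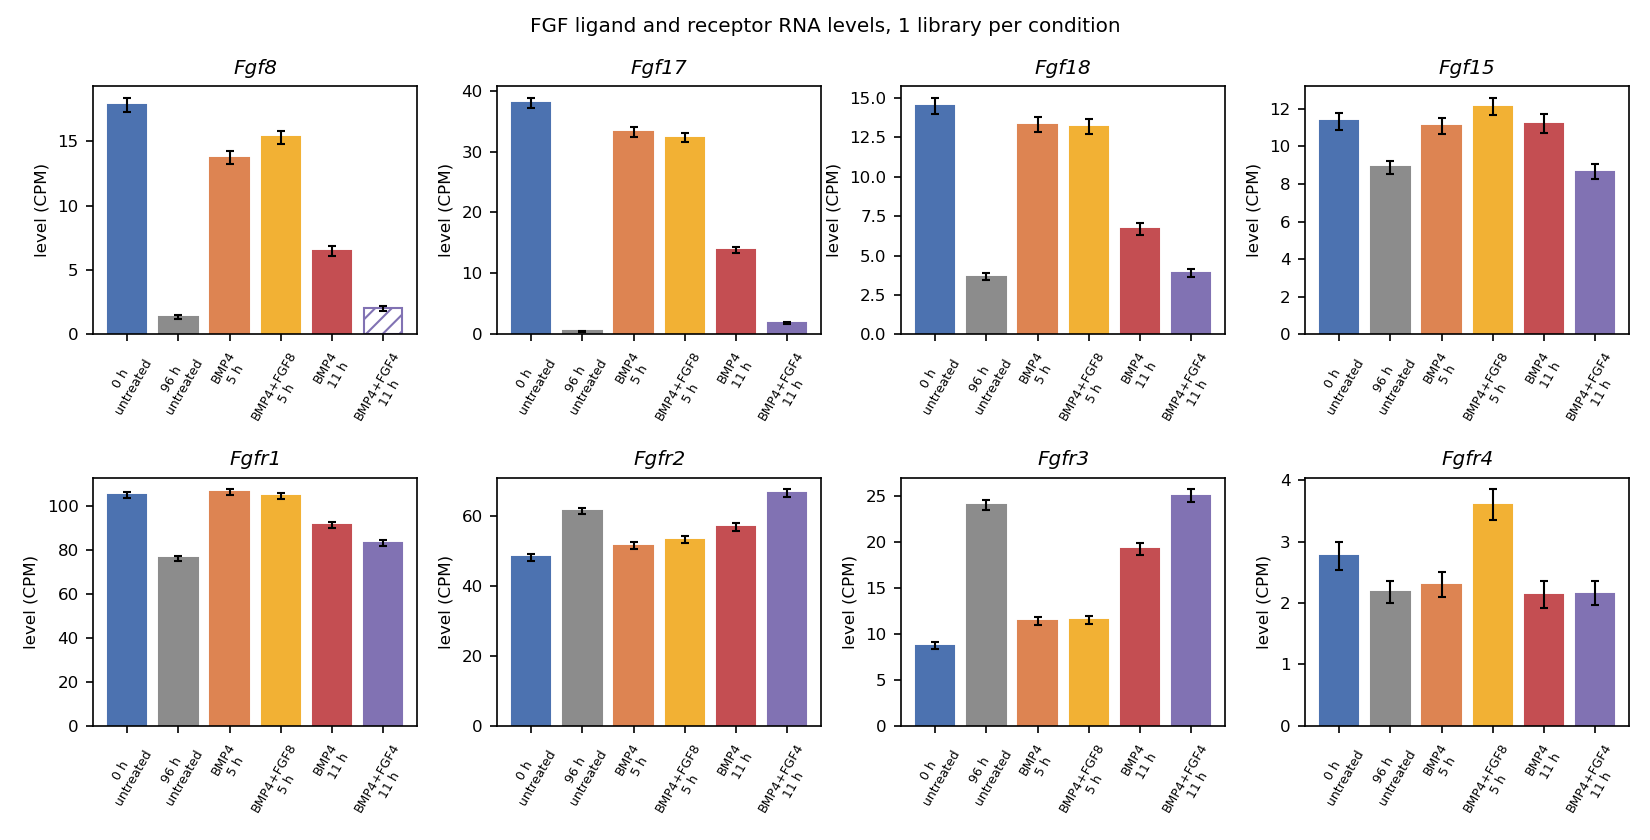
Levels (CPM, linear axes from 0, a scale of its own per gene) of the 8 FGF genes in the 6 libraries, with 95% counting intervals and no replicates. The hatched bar is Fgf8 in the BMP4 with FGF4 library, 2.03 CPM, from a row that was not securely placed. Fgf8, Fgf17 and Fgf18 are high at 0 h and 5 h, and Fgfr3 is high at 96 h and with FGF4.

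Among the receptors Fgfr3, which restrains growth of cartilage, moved opposite to Fgf8, Fgf17 and Fgf18. Its level was 8.71 CPM at 0 h, 24.0 at 96 h, 11.4 with BMP4 at 5 h, 11.5 with FGF8 added, 19.2 with BMP4 at 11 h and 25.0 with FGF4 added. The 96 h and FGF4 libraries had the highest values, with overlapping intervals, and 0 h the lowest.

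Sequence just upstream of the start was at hand for 4 of the 8 genes (RefSeq promoters, GRCm38.p6). Fgf18 and Fgfr3 are printed, from 250 to 51 bases before the start, as the ligand and the receptor of these 4 that passed 2-fold at 96 h. Capitals mark a match, on either strand, to CTTTGA (TCF/LEF), GGCGCC (BMP SMAD), CCGGAA (ETS), TTTATG (CDX) or GGTGTG (T-box), none of which overlaps another. The Fgf18 stretch is chr11:33147451-33147650 on the minus strand, with 77.5% G and C. The Fgfr3 stretch belongs to the upstream of its 2 annotated starts, at chr5:33721474-33721673 on the plus strand, with 65.0% G and C.
Fgf18: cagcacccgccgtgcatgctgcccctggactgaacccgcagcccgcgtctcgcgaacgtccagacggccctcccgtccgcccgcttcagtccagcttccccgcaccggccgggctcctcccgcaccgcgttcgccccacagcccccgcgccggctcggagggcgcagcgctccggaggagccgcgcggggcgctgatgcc
Fgfr3: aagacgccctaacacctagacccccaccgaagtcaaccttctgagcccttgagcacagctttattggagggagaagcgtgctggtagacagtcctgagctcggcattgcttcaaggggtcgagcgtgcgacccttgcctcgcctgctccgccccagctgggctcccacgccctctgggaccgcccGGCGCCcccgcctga
The printed Fgf18 stretch held none of the 5 motifs and the printed Fgfr3 stretch held GGCGCC once, ending 60 bases before the start. Of the stretches not printed, that of the downstream Fgfr3 start held GGCGCC once, ending 118 bases before it. That of Fgfr2 held TTTATG once (154 bases before the start) and that of Fgfr4 CCGGAA once (173 bases). Of 32851 promoter stretches of the same 200 bases, 7.15% held GGCGCC, 11.8% CTTTGA, 8.03% CCGGAA, 8.78% TTTATG and 13.4% GGTGTG. A match describes the letters and is not a bound site.

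Fgfr1, the receptor that mesoderm needs to leave the primitive streak, was at 105.0 CPM at 0 h, 76.1 at 96 h, 106 with BMP4 at 5 h, 104 with FGF8 added, 91.2 with BMP4 at 11 h and 83.1 with FGF4 added. The 0 h and 5 h libraries overlapped at the top and 96 h was lowest. Fgfr2, which serves limb and lung outgrowth, ran the other way, at 48.2 CPM at 0 h, 61.6 at 96 h, 51.6 and 53.3 at 5 h without and with FGF8, 56.8 with BMP4 at 11 h and 66.6 with FGF4 added. Neither receptor differed by 2-fold between any pair of libraries compared.

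Fgfr4 was the weakest receptor, at 2.76 CPM at 0 h, 2.18 at 96 h, 2.29 with BMP4 at 5 h, 3.60 with FGF8 added, 2.13 with BMP4 at 11 h and 2.15 with FGF4 added. The library with FGF8 stood above the other 5, whose intervals overlapped from neighbour to neighbour except between 0 h and BMP4 5 h.

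Divided by coding length, the 4 receptors summed to nearly the same level in every library, between 65.8 and 71.0 CPM per kb, while their makeup shifted. Fgfr1 made up 63.7% of the sum at 0 h, 46.3% at 96 h, 61.9% with BMP4 at 5 h, 60.4% with FGF8 added, 53.7% with BMP4 at 11 h and 46.8% with FGF4 added. Fgfr2 held 29.0%, 37.1%, 29.9%, 30.6%, 33.2% and 37.2% in the same order. The share of Fgfr3 was 5.49% at 0 h and 15.2% at 96 h, 6.89% in both 5 h libraries, 11.7% with BMP4 at 11 h and 14.7% with FGF4 added. Fgfr4 held between 1.27% and 2.17%. With the length of all merged exons in place of coding length the Fgfr3 share ran from 7.04% to 19.0%, with 0 h lowest and 96 h highest as before, and the Fgfr4 share from 3.21% to 5.53%.

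The 4 ligands, by contrast, differed in their sum. It was 121 CPM per kb at 0 h, 21.8 at 96 h, 107 with BMP4 at 5 h, 109 with FGF8 added and 57.3 with BMP4 at 11 h. With FGF4 added it was 24.8, counting the less secure Fgf8 row. Fgf17 made up 48.3% of the sum at 0 h, 3.37% at 96 h, 48.0% with BMP4 at 5 h and 37.3% at 11 h. Fgf15, the ligand that held level, went from 14.3% of the sum at 0 h to 62.3% at 96 h, and stood at 15.9% and 29.9% with BMP4 at 5 h and 11 h. With merged exon length its share at 96 h was 40.2%, and Fgf18 at 42.4% was then the largest.

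**Figure D2:**
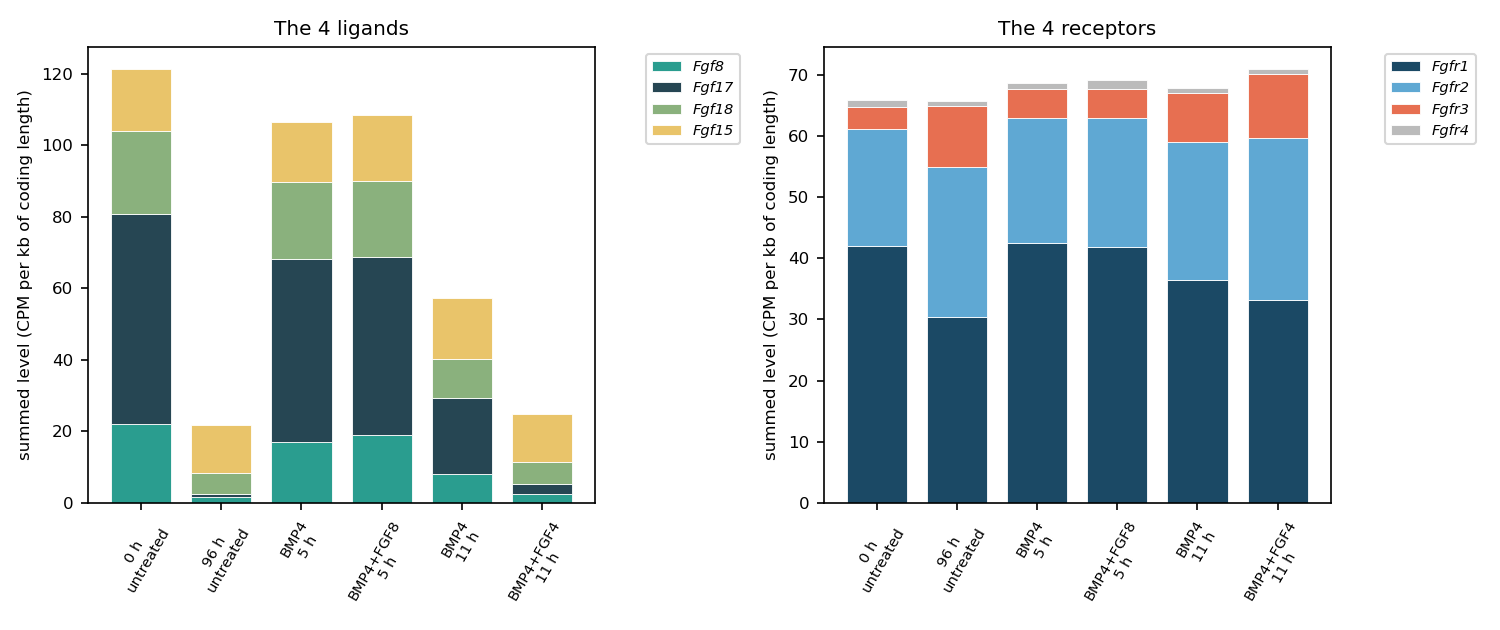
Summed levels of the 4 ligands (left) and 4 receptors (right), in CPM per kb of coding length, 1 bar per library without replicates. The ligand sum ranges from 21.8 to 121 and the receptor sum from 65.8 to 71.0, while Fgfr3 takes 5.49% to 15.2% of the receptors. The FGF4 bar uses the less secure row for Fgf8.

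After 96 h of culture without growth factor, 3 of the 4 ligands were lower and 1 of the 4 receptors was higher than at 0 h. Fgf17 fell by 5.30 on the log2 scale, and its plain ratio was 67.0 to 95.4-fold lower. Fgf8 fell by 3.33 (12.1 to 15.1-fold) and Fgf18 by 1.86 (3.71 to 4.28-fold). Fgfr3 rose by 1.41, or 2.62 to 2.90-fold. Fgf15, Fgfr1, Fgfr2 and Fgfr4 had log2 ratios of -0.33, -0.46, 0.35 and -0.29. Of all genes analysed 3.44% were higher and 2.21% lower, against 1 and 3 of these 8. Tailbud and presomitic markers fell together with the ligands in these libraries, and fibroblast and endothelial markers were higher, as given above.

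In the library labelled BMP4 5 h the ligands stood far above 96 h and near 0 h. Fgf17 was higher by a log2 ratio of 5.11 (58.5 to 83.4-fold), Fgf8 by 2.97 (9.34 to 11.7-fold) and Fgf18 by 1.74 (3.40 to 3.93-fold). Fgfr3 was lower, at -1.05 (2.02 to 2.21-fold), and at -0.96 with 2 CPM added it missed the threshold. The other 4 genes lay between -0.25 and 0.48. The 3 ligands were not read at 5 h with placement on the 96 h library alone or with a margin of 10 units, and stayed past 2-fold with placement on the 0 h library alone. Over all genes 2.03% were higher and 2.85% lower. This comparison shares the 96 h library with the preceding one, so that an unusual 96 h library would move both. Against 0 h, which it does not share, BMP4 5 h had log2 ratios of -0.36 for Fgf8, -0.19 for Fgf17, -0.12 for Fgf18 and 0.37 for Fgfr3.

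With BMP4 for 11 h, Fgf17 and Fgf8 were again above 96 h, at log2 ratios of 3.87 (24.3 to 34.9-fold) and 1.94 (4.37 to 5.57-fold). Fgf18 had 0.79 and did not reach 2-fold, and Fgfr3 had -0.32. No FGF gene was lower, and over all genes 1.62% were higher and 0.207% lower. Set directly against BMP4 at 5 h, the 11 h library was lower for Fgf17 by 1.23 (2.29 to 2.52-fold) and for Fgf8 by 1.03 (1.97 to 2.27-fold). Fgf8 missed the threshold with 2 CPM added, at -0.89, and Fgf18, at -0.95, reached it with unscaled totals, at -1.05. Fgfr3 had 0.73. Over all genes 1.90% were higher and 0.244% lower at 11 h than at 5 h. Fgf17, Fgf8 and Fgf18 were not read at 11 h with placement on either untreated library alone or with a margin of 10 units.

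Adding FGF8 to BMP4 for 5 h left all 8 genes within 2-fold of BMP4 alone. Fgf8 had a log2 ratio of 0.15, a plain ratio of 1.06 to 1.17. Fgf17 was at -0.04 (0.941 to 1.00), Fgf18 at -0.01 and Fgfr3 at 0.01 (0.953 to 1.07). Fgfr4 differed most, at 0.55, with a plain ratio of 1.40 to 1.76. Few genes passed 2-fold between this pair, 0.111% higher and 0.00738% lower, so 0 of 8 is close to that background. Epithelial and endoderm markers (7 of 10) summed to 97.6 CPM with FGF8 and 71.1 CPM with BMP4 alone. They summed to 81.6 CPM at 0 h, 88.8 at 96 h, 75.6 with BMP4 at 11 h and 96.3 with FGF4 added. Fgfr4 stood at 2.76, 2.18, 2.13 and 2.15 CPM in the same order. The part of these markers in the Fgfr4 value was not tested.

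Adding FGF4 to BMP4 for 11 h was accompanied by lower Fgf17, at a log2 ratio of -2.64, 6.88 to 8.56-fold lower than with BMP4 alone. Its row was not read with placement on either untreated library alone, with a margin of 10 units or with the annotation, so the call is lost there. The Fgf8 row described above would give -1.46, a plain ratio of 0.280 to 0.351. Fgf18 had -0.71 (0.532 to 0.638) and Fgf15 -0.36, and Fgfr3 and Fgfr2 had 0.38 and 0.23. Of all genes 0.923% were higher and 0.502% lower, against 0 and 1 of the 7 FGF genes read. The Fgf17 value was still 3.09 to 4.65-fold above 96 h (log2 ratio 1.24), whereas Fgf18 and Fgfr3 stood at 0.08 and 0.06 from 96 h. Summed tailbud and presomitic markers were 145 CPM with FGF4 and 335 without, and fibroblast markers 1230 and 508 CPM. Their part in the ligand values was not tested.

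**Figure D3:**
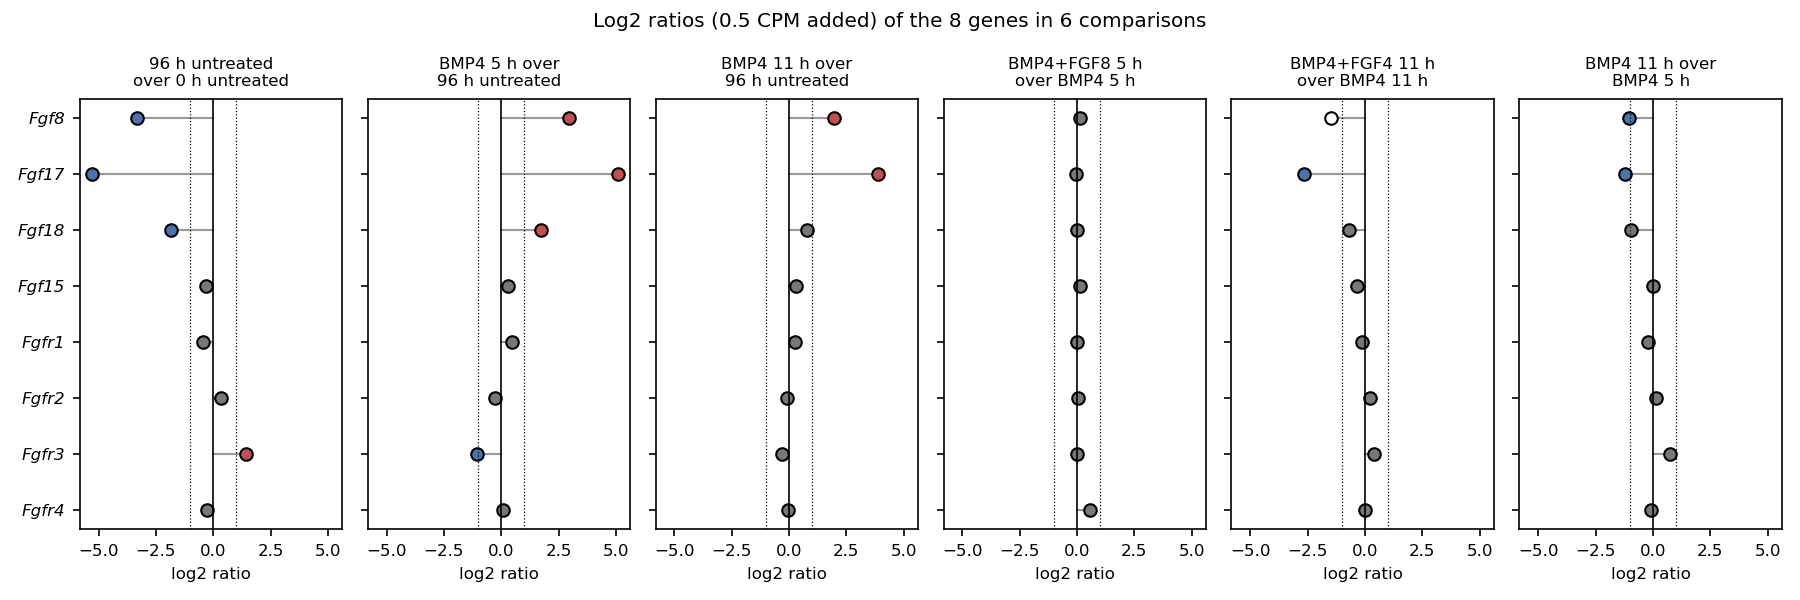
Log2 ratios of the 8 genes in 6 comparisons of 1 library each (0.5 CPM added, dotted lines at 2-fold). Filled red and blue points passed 2-fold up or down, grey points did not, and the open point is Fgf8 from the less secure row. Fgf17 spans -5.30 to 5.11, whereas Fgf15, Fgfr1, Fgfr2 and Fgfr4 stay inside the dotted lines in all 6.

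The list of secreted paracrine ligands holds Fgf8, Fgf17 and Fgf18 and 12 others. Of the 15, 7 were read and expressed in the comparisons without the FGF4 library. Of these, Fgf3, Fgf4, Fgf8 and Fgf9 were not read in the FGF4 library, so they are outside the genes behind the shares of all genes. Counts and shares thus come from differently filtered sets. After 96 h 6 of the 7 were lower and 1 higher, with a median log2 ratio of -2.43, beside 2.21% of all genes lower, 3.44% higher and a median of 0.00. Fgf3, a tailbud and inner ear ligand, went from 7.33 CPM at 0 h to 0.283 at 96 h, and was 6.36 with BMP4 at 5 h and 3.23 at 11 h. Fgf9, which acts in gonad and lung mesenchyme, went from 8.21 to 1.11 CPM and was 7.58 and 5.10 CPM with BMP4 at 5 h and 11 h. Fgf10, the limb and lung ligand made by mesenchyme, was the 1 that rose, from 3.19 to 9.25 CPM, and it was 3.80 CPM with BMP4 at 5 h. Fgf4, named after its values were seen because the protein was given to 1 culture, was weakly expressed, at 1.28 CPM at 0 h, 0.0147 CPM (4 counts) at 96 h, 1.12 with BMP4 at 5 h, 0.908 with FGF8 added and 0.559 with BMP4 at 11 h. Over 96 h, 6 of the 7 were higher and 1 lower with BMP4 at 5 h (median 2.33, all genes 2.03% and 2.85%), and 5 were higher with BMP4 at 11 h (median 1.80, all genes 1.62%). With FGF8 none of the 7 passed 2-fold, near the background of 0.111% and 0.00738% of all genes. In the FGF4 library 3 of the 15 were read and expressed, and 1 of them, Fgf17, was lower (all genes 0.502%). At 11 h against 5 h of BMP4 2 of the 7 were lower, Fgf8 and Fgf17 (median -0.88, all genes 0.244%). Fgf4 reached the filter of 1 CPM only in the 0 h and BMP4 5 h libraries, where it was highest. Its calls against 96 h, counted above, are therefore not independent of that filter. With 2 CPM added, Fgf4 missed 2-fold in all 3 comparisons with 96 h or 0 h in which it had passed. Fgf10 then missed it with BMP4 at 5 h, at -0.96. Fgf3, Fgf4 and Fgf9 were not read at 5 h or 11 h with placement on the 96 h library alone or with a margin of 10 units. At 11 h, Fgf4 and Fgf9 were also not read with placement on the 0 h library alone, nor Fgf3 and Fgf4 with the annotation. Fgf4 at 11 h over 96 h missed 2-fold with unscaled totals too (0.99).

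Feedback inhibitors and transcriptional targets of ERK signalling were lower at 96 h in 7 of 17 cases, and none was higher, with a median of -0.79, beside 2.21% of all genes lower and 3.44% higher. Spry4, a Sprouty protein that restrains signalling from these receptors, fell from 27.6 to 4.68 CPM, and Etv4, an ETS factor induced by FGF, from 37.0 to 8.28 CPM. Il17rd (Sef), which blocks FGF signalling at the membrane, fell from 98.8 to 27.1 CPM, and Spred3 from 9.93 to 3.05 CPM. With BMP4 at 5 h 7 of the 17 were above 96 h (median 0.77, 2.03% of all genes higher), with Spry4 at 25.3, Etv4 at 34.9 and Il17rd at 98.9 CPM. At 11 h 4 of the 17 were above 96 h (median 0.51, 1.62% of all genes higher), and against 5 h Spry4 was lower, at 11.4 CPM (0.244% of all genes lower). With placement on the 96 h library alone, Etv4 was not read at 5 h or 11 h, nor Etv5 at 5 h, nor Spry4 at 11 h. Spry4 at 11 h was also not read with a margin of 10 units. With 2 CPM added, Spry2 over 96 h missed 2-fold at 5 h (0.99) and Spred3 at 11 h (0.79). Spred3 at 11 h missed it with unscaled totals too (0.94). The ERK phosphatase gene Dusp4 was at 46.2 CPM with BMP4 at 11 h against 19.0 at 96 h, a level near the 47.1 CPM of 0 h and the 46.5 CPM of BMP4 at 5 h. When FGF8 was added to BMP4 for 5 h, 0 of the 17 passed 2-fold in either direction (median -0.02, all genes 0.111% and 0.00738%), with Spry4 at 24.6 and Etv4 at 35.0 CPM. When FGF4 was added for 11 h, Etv4 was lower, at 9.62 against 20.7 CPM, and no other of the 17 passed 2-fold (all genes 0.502% lower, 0.923% higher). Etv4, at a log2 ratio of -1.07, missed 2-fold with 2 CPM added (-0.97) and with unscaled totals (-0.93), and was not read with placement on either untreated library alone. Spry4 was at 6.59 against 11.4 CPM there, within 2-fold. Summed tailbud and presomitic markers were likewise highest at 0 h and 5 h and lowest at 96 h, and their part was not tested.

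Between receptor and ERK, none of 20 adaptors and RAS/ERK cascade genes, among them the docking protein gene Frs2 and the kinase gene Mapk3, passed 2-fold in any of the 6 comparisons, and list medians lay between -0.04 and 0.04. With 0.00738% to 3.44% of all genes past 2-fold in a given direction, a count of 0 of 20 is near that background. The largest value at 96 h was that of the docking protein gene Gab1, at 24.5 against 17.2 CPM (log2 ratio 0.49). The decoy receptor gene Fgfrl1, which lacks a kinase domain, was between 21.8 and 29.1 CPM. Of 12 genes for heparan sulphate synthesis and editing, Sulf1, which removes sulphate groups from heparan sulphate, was the 1 that passed 2-fold. It fell from 88.4 to 29.5 CPM at 96 h and was at 84.4 CPM with BMP4 at 5 h. At 96 h 2.21% of all genes were lower than at 0 h. With BMP4 at 5 h 2.03% were higher than at 96 h. The sulphotransferase gene Hs6st2 went from 18.3 to 32.5 CPM at 96 h, a log2 ratio of 0.81 within 2-fold. Of 11 heparan sulphate proteoglycan genes Hspg2 (perlecan) was higher with FGF4, at 146 against 72.2 CPM, and no other passed 2-fold. Its log2 ratio was 1.01, and 0.99 with 2 CPM added. Of all genes 0.923% were higher with FGF4. Hspg2 was not read in that library with a margin of 10 units. Among 6 co-receptor and binding protein genes Flrt2, a membrane protein that binds FGF receptors, rose from 5.38 to 23.2 CPM at 96 h and was 6.07 and 15.3 CPM with BMP4 at 5 h and 11 h. Ncam1, an adhesion molecule that also binds FGF receptors, fell from 77.6 to 30.9 CPM at 96 h and was 75.1 CPM with BMP4 at 5 h. At 96 h 1 of the 6 was thus higher and 1 lower, beside 3.44% and 2.21% of all genes. With BMP4 at 5 h 1 was higher than at 96 h and 1 lower, beside 2.03% and 2.85%. Klb, the co-receptor of endocrine FGFs, stood at 1.44 CPM with BMP4 at 11 h against 0.459 CPM at 96 h. It was called higher, beside 1.62% of all genes, though not with 2 CPM added (0.48) or unscaled totals (0.95). With a margin of 10 units it was not read at 11 h. Klb reached the filter of 1 CPM only in the BMP4 11 h library, where it was highest, so this call is not independent of that filter. It falls under the level set for named genes and was named after its values were seen.

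**Figure D4:**
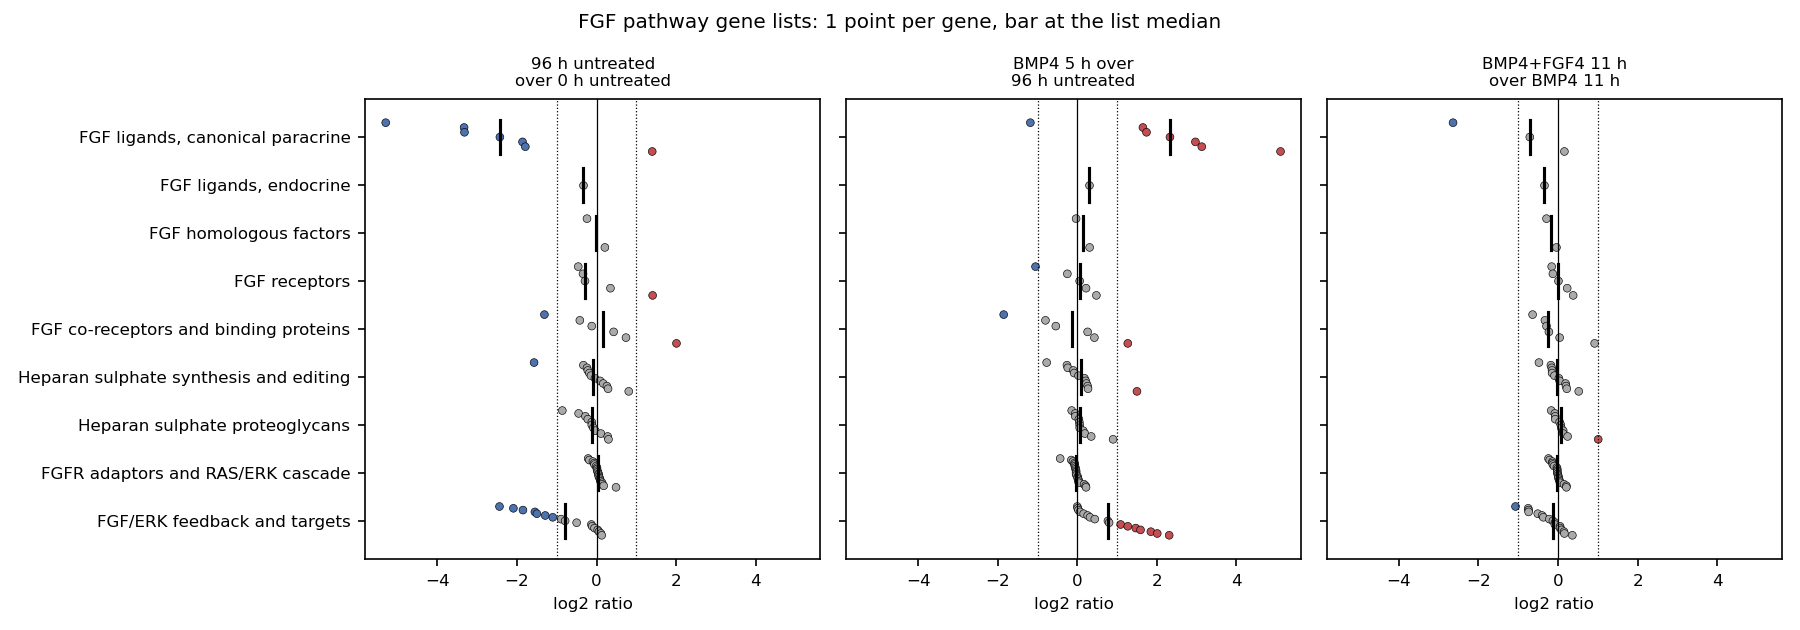
Log2 ratios (x axis, 0.5 CPM added) of FGF pathway genes in 9 lists, 1 point per gene and a bar at the list median, for 3 comparisons of 1 library each. Coloured points passed 2-fold. Paracrine ligands and ERK feedback genes lie to the left at 96 h (medians -2.43 and -0.79) and to the right with BMP4 at 5 h (2.33 and 0.77), and the 20 RAS/ERK cascade genes stay inside the dotted lines.

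To describe which genes ran most like each FGF gene over the 6 libraries, 9464 genes were ranked by the root mean square distance of their centred log2 levels. Closest to Fgf17 were Msgn1 (0.143), Tbx6 (0.243) and Pax2 (0.288), of which Msgn1 and Tbx6 are among the listed tailbud and presomitic markers. Msgn1 stood at 23.1, 0.150, 18.2, 6.47, 17.1 and 0.824 CPM in the libraries untreated at 0 h and 96 h, given BMP4 for 5 h and 11 h, and given added FGF8 and FGF4. Closest to Fgf18 were Fabp7 (0.06) and Arhgap24 (0.066). Closest to Fgfr3 were Kctd12 (0.065), Aff3 (0.08) and Tgfb1i1 (0.087). Fgfr4 was followed most closely by the tight junction gene Cgn (0.076), by Perp (0.078) and by Cpm (0.102). Cgn ran from 6.55 CPM at 96 h to 9.63 CPM with FGF8 added, and was at 7.13 CPM with BMP4 at 5 h. The genes nearest to Fgf15 were Lsm1, Slc16a1 and Arl15, to Fgfr1 Cachd1, Cxadr and Klc2, and to Fgfr2 Scaper, Serinc3 and Chpf2, at distances between 0.021 and 0.042. Fgf8 was left out, as it was not read in all 6 libraries. These points share the libraries, their scaling and their placement.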

How the data were processed

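Total RNA of 6 cultures was sequenced from stranded libraries, per the labels' protocols. Whole-number read counts per gene, without normalization, were deposited by the authors. Build mm10 and the tools HTSeq, DESeq, cutadapt and STAR 2.4.0e come from the submitters' processing notes, which give no roles. How reads were counted is not given in the sources used here. Between 65.4% and 72.8% of values from 1 to 20 were even. Intervals are too narrow if counting took both mates of each fragment, which no source states.

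The untreated columns match the 19342 names, and the 4 growth factor columns hold 19415 to 19826 values. Each was placed by an order-preserving alignment of its values to the names, sorted without regard to case, scored by distance from the range of both untreated libraries. This favours values inside that range. A count was read where any other row scored at least 5 log-likelihood units lower. Correlations of log levels with the untreated libraries were 0.046 to 0.132 row by row with 0 h, and 0.968 to 0.994 with either after placement, which seeks like levels and so checks no name. Both 5 h columns aligned directly gave the same pair for 15940 of 15945 genes, and both 11 h columns for 15938. Of these 15945 genes, 13545 had at least 1 CPM in at least 1 library.

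CPM used TMM-scaled totals (edgeR 4.0.16, R 4.3.3), and log2 ratios were taken after adding 0.5 CPM. Intervals are exact at 95% (Poisson for levels, Clopper-Pearson for ratios) and cover counting error only. A paralog's or an overlapping gene's reads could not be checked from gene counts.

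The 8 genes, the lists and the rules were chosen with earlier results of these data known. Besides the 8 genes, those named are up to 4 per list and direction past 2-fold with a mean of at least 1 CPM, and the 3 genes most like each FGF gene with a mean of at least 5 CPM. A few items that these rules select are not reported here. The placement charging extra values by annotation, the merged exon lengths, and the comparisons of BMP4 5 h with 0 h and of the FGF4 library with 96 h were added after the data were seen.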

Additional observations from a re-analysis of the deposited data

How the results depend on the processing

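No paired analysis was possible because each condition had 1 library. Under 12 alternatives to the scaling, the amount added, the level filter, the fold and the placement, no log2 ratio of an FGF gene changed its sign once called. Where a ratio could be computed, 507 kept their side of the threshold, 2 lost it (Fgfr3 with BMP4 at 5 h over 96 h, -0.96, and Fgf8 at 11 h over 5 h of BMP4, -0.89, both with 2 CPM added) and 5 gained it. Another 50 could not be computed, 44 because a gene was not read under another placement and 6 because Fgfr4 lay under 5 CPM. Of these 50, 22 had passed 2-fold and are therefore lost. The 507 include settings with little or no room for change. The level filter does not enter a ratio, and another margin keeps the same counts. At 1.5-fold no call can be lost, and placement leaves the untreated counts as they are.

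Counts of FGF genes past 2-fold depended on how many were read. With 96 h alone as the reference for placement 5 of 8 were read, and the counts were 1 for BMP4 5 h over 96 h and 0 for BMP4 11 h over 96 h, for added FGF4 and for 11 h over 5 h. With 0 h alone, 5 were read in the 11 h libraries, and these last 3 counts were again 0. With a margin of 10 units 4 were read, and the counts were 1, 0, 0 and 0. With the best row whatever its margin, added FGF4 gave 2 of 8, Fgf8 joining Fgf17. At 1.5-fold, added FGF4 gave 2 and 11 h over 5 h gave 4, and with 2 CPM added the latter gave 1.

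Pathway lists together had 18, 18, 10, 0, 3 and 4 genes past 2-fold in the 6 comparisons, in the order 96 h over 0 h, BMP4 5 h and 11 h over 96 h, added FGF8, added FGF4, and 11 h over 5 h. With 96 h alone as reference these became 10 (BMP4 5 h), 3 (BMP4 11 h), 1 (FGF4) and 1 (11 h over 5 h). With 0 h alone they became 6, 1 and 2 for the last 3 of these, and with a margin of 10 units 4, 1 and 1. Added FGF4 gave 1 with 2 CPM added and 6 with the best row whatever its margin. At 1.5-fold the counts were 19 (BMP4 11 h), 9 (FGF4) and 17 (11 h over 5 h). The counts lost under stricter placement rest on fewer genes read. Merged exon length moved 43 of 48 makeup shares by 5% of their value or more, and no division by length moved 12. The fewest counts stood behind Fgf17 at 96 h, where 130 counts allow 0.399 to 0.566 CPM.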
